A study of Mus musculus with 8 samples.

Results

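This section follows 6 genes that cytokine signalling through STAT transcription factors is known to switch on in leukocytes, in bulk RNA sequencing of neutrophils linked to B16 tumors, a mouse melanoma line. They are the signalling inhibitors Socs1, Socs2, Socs3 and Cish, the kinase gene Pim1 and the receptor gene Il4ra, and all 6 are among the 18187 gene symbols of the count table. The members were chosen by the difference in their scaled counts between the same libraries that are compared here, so their own levels and fold changes are given as a description, with no p-value. The treatments were aOX40 (3 libraries, replicates 1 to 3), named for the costimulatory receptor OX40, and IgG (5 libraries, replicates 2 to 6), and every library carries the B16 and neutrophil labels. Strain, genotype, age, dose, time and how the cells were isolated are not given in the labels. The labels do not say whether libraries came from separate animals, so a p-value given below speaks only to the spread from library to library, part of which may be technical.

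Cytokine receptors of this kind pass their signal through JAK kinases to STAT factors, which enter the nucleus and activate genes. Among those genes are inhibitors that act back on the pathway. SOCS1 and SOCS3 block JAK kinase activity, and SOCS3 is bound by the receptors for G-CSF and for the IL-6 family, which makes it a known brake on G-CSF signalling in neutrophils. CIS, the product of Cish, and SOCS2 bind phosphorylated receptor tails, and the SOCS box at the end of each protein recruits a cullin ubiquitin ligase. PIM1 is a survival kinase that is controlled mainly through its transcription, and the IL-4 receptor alpha chain carries the signals of IL-4 and IL-13, which act mostly through STAT6.

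RefSeq windows (GRCm38.p6) from 250 bases before to 50 bases after the start of the gene were found for 5 of the 6 members, with 2 starts for Pim1 and none for Socs2. The 3 windows that hold a STAT or interferon-type motif are shown 5′ to 3′ on the strand of the gene, with the motif in capitals.
Cish, chr9:107296409-107296708, plus strand: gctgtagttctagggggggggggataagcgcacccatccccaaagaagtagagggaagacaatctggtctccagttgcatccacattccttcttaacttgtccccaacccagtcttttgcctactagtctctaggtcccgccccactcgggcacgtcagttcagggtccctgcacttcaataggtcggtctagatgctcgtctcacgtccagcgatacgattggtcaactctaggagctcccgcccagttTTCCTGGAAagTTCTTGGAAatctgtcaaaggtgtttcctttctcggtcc
Socs3, chr11:117969317-117969616, minus strand: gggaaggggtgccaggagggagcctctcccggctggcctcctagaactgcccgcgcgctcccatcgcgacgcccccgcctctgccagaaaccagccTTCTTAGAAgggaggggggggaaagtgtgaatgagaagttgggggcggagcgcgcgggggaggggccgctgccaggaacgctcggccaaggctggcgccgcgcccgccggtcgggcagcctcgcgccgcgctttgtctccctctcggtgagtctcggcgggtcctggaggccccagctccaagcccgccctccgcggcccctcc
Socs1, chr16:10785487-10785786, minus strand: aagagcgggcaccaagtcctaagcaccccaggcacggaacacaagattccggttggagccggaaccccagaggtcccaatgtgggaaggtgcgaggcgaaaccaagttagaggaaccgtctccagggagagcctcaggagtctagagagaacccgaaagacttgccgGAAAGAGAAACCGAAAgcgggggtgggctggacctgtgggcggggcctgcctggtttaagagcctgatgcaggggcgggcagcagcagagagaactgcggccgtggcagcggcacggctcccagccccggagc

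The Cish window holds TTCNNNGAA, the core of the STAT site, in 2 copies whose first bases lie at positions 1 and 12 counted from the RefSeq start. The Socs3 window holds it in 1 copy, 154 bases upstream of the start. The motif reads the same on both strands, and it occurs in 8.3% of 32851 such windows. The form with a longer spacer, TTCNNNNGAA, is in none of the members' windows and in 6.95% of all of them. The Socs1 window holds GAAANNGAAA, the repeat bound by interferon regulatory factors, in 2 overlapping copies that begin 83 and 77 bases upstream of the start, and this motif (searched on both strands) is in 3.44% of all windows. Neither the Il4ra window nor the Pim1 windows hold any of these letters. The RefSeq start lies 633 bases inside the GENCODE gene for Cish and 681 bases inside it for Socs3, so that these windows need not be the promoter in use. At Socs1 both annotations give the same start, at position 10785536 of chromosome 16.

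The 6 genes lie on 6 chromosomes of GRCm38. GENCODE places Socs1 at chr16:10782240-10785536, Socs2 at chr10:95385362-95417180, Socs3 at chr11:117966079-117970047, Cish at chr9:107296026-107302784, Pim1 at chr17:29490753-29496112 and Il4ra at chr7:125552120-125579474. Socs1 and Socs3 each carry their whole coding sequence, of 636 and 675 bases, in 1 exon, whereas the longest coding sequence of Cish spans 3 exons, that of Pim1 6 and that of Il4ra 9. Their windows differ in base composition, from a GC content of 49.0% at the downstream start of Pim1 to 81.3% at its upstream start, where 99.3% of all windows have less. No near copy of any member was found among the annotated transcripts. Levels are CPM, counts per M counts of the library (M, mega) after TMM scaling, a correction for differences in library composition. The noncoding gene model Gm26885 overlaps Pim1 on the other strand and was at 11.8 to 40.8 CPM, against 127 to 510 CPM for Pim1, and nothing in the sources used here says whether strand was used in counting. Likewise Gm17040 overlaps Cish (at 0 in 7 libraries and 0.83 CPM in IgG replicate 3) and Gm44876 overlaps Il4ra (at most 0.32 CPM).

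Socs1, Cish and Pim1 were lower in each of the 3 aOX40 libraries than in any of the 5 IgG libraries, by 4.11, 2.55 and 2.19 times in the group means. Socs3 and Il4ra overlapped between the groups, and Socs2 was near 1 CPM or below it in both. In bulk RNA, fewer cells of a type and less RNA per cell cannot be told apart.

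**Figure D1:**
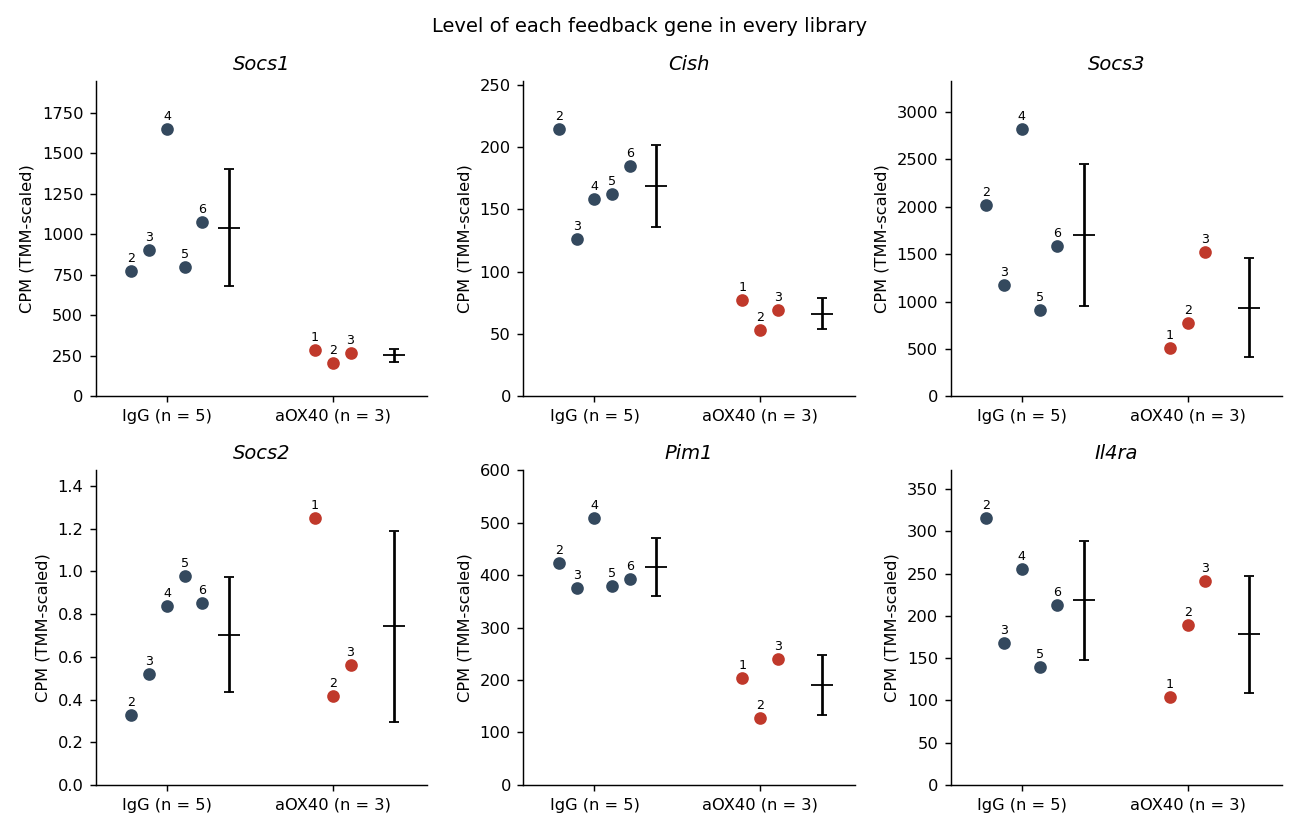
CPM of each of the 6 genes in every library, with IgG in dark blue and aOX40 in red, each point labelled with its replicate number, and the mean and SD of each group to its right. For Socs1, Cish and Pim1 all red points lie below all blue ones, while for Socs3, Socs2 and Il4ra the groups overlap.

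Socs1 stood at 283, 207 and 270 CPM in aOX40 replicates 1 to 3. In IgG replicates 2 to 6 it stood at 770, 905, 1649, 800 and 1078 CPM. The lowest IgG library was thus far above the highest aOX40 library, and replicate 4 was the highest of the IgG libraries. The means were 253 ± 40.5 CPM (SD, n = 3) and 1041 ± 361 CPM (SD, n = 5), which gave -2.04 (SE 0.29) as the log2 fold change.

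Cish, the other inhibitor with separate groups, was at 76.8, 52.8 and 69.1 CPM in aOX40. In IgG it was at 214, 126, 158, 162 and 184 CPM. Its libraries were close together within each group, with a pooled SD of 0.28 on the log2 CPM scale against a median of 0.70 over all tested genes, and 9.0% of those genes had a smaller one. The tested genes include ones as low as Socs2, and spread was not compared among genes of like level. The log2 fold change was -1.35 (SE 0.23), from means of 66.2 ± 12.2 CPM (SD, n = 3) and 169 ± 32.9 CPM (SD, n = 5).

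Socs3 was the most abundant of the 6 genes, at 512, 770 and 1527 CPM in aOX40 and at 2017, 1179, 2821, 908 and 1591 CPM in IgG. aOX40 replicate 3 lay inside the IgG range, above IgG replicates 3 and 5, while the other 2 aOX40 libraries were below every IgG library. The means were 936 ± 527 CPM (SD, n = 3) and 1703 ± 753 CPM (SD, n = 5), and the log2 fold change of -0.86 (SE 0.42) was -1.40 without aOX40 replicate 3 and -0.56 without aOX40 replicate 1. Socs3 and Socs1 therefore differed in how the aOX40 libraries were ordered, since replicate 1 was the lowest of the 3 for Socs3 and the highest for Socs1.

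Socs2, an inhibitor best known for limiting growth hormone signalling, was hardly detected. It had between 16 and 93 counts in a library, or 1.25, 0.42 and 0.56 CPM in aOX40 and 0.33, 0.52, 0.84, 0.98 and 0.85 CPM in IgG. Its log2 fold change of 0.00 (SE 0.58) went to -0.56 without aOX40 replicate 1 and to 0.32 without aOX40 replicate 2, so no direction is given.

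Pim1 was at 205, 127 and 239 CPM in aOX40 and at 424, 375, 510, 380 and 393 CPM in IgG. The IgG libraries were the closest together of any member, with an SD of 0.18 on the log2 CPM scale, against 0.47 in aOX40, where replicate 2 was low. The log2 fold change was -1.13 (SE 0.24), from means of 190 ± 57.4 CPM (SD, n = 3) and 416 ± 55.6 CPM (SD, n = 5).

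Il4ra was at 104, 190 and 241 CPM in aOX40 and at 316, 168, 256, 139 and 212 CPM in IgG. Only aOX40 replicate 1 was below every IgG library, and the other 2 lay within the IgG range. The means of 178 ± 69.0 CPM (SD, n = 3) and 218 ± 70.3 CPM (SD, n = 5) differed by less than the SD of either group. The log2 fold change was -0.29 (SE 0.32), and it was 0.04 when libraries were scaled by total counts alone.

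Counted over the 6 members, 3 had an adjusted p below 0.05 in the fit over all genes (edgeR's quasi-likelihood test with Benjamini-Hochberg adjustment) and were lower in aOX40, and 0 were higher. Over all 13278 genes tested, 3.00% were called lower and 2.64% higher. The same 3 members did not overlap between groups, all lower, where 7.75% of all genes did not overlap and were lower and 8.22% did not overlap and were higher. The median log2 fold change was -0.996 over the members, with 5 of 6 below 0, and 0.05 over all genes, with 6351 of 13278 below 0. These shares are read as no support, because the members were picked on this contrast. The calls depended on single libraries: Socs1, Cish and Pim1 all lost theirs without aOX40 replicate 2, where edgeR called 0 of all genes (2230 at an unadjusted p below 0.05). Without aOX40 replicate 3, only Socs1 of the 6 was called, and without aOX40 replicate 1 Pim1 was not.

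**Figure D2:**
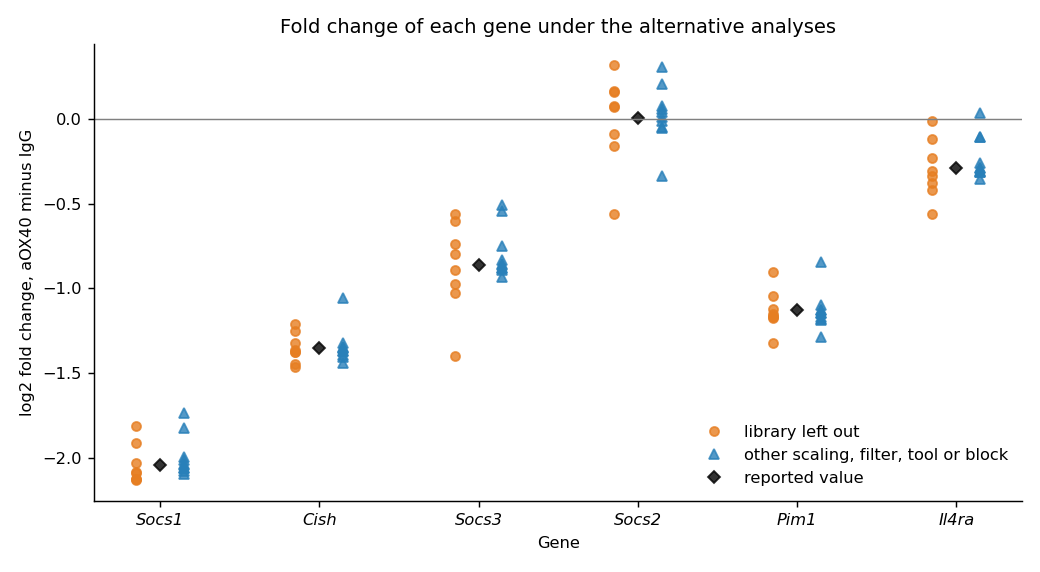
log2 fold change (aOX40 minus IgG) of each gene as reported (black diamonds), with 1 library left out (orange circles) and under other scaling, filters, tools or the replicate block (blue triangles). Socs1, Cish, Socs3 and Pim1 stay below 0 in all 18 alternatives, from -2.13 to -1.74 for Socs1 and from -1.40 to -0.51 for Socs3, while Socs2 and Il4ra come to lie on both sides of 0.

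Between genes, levels were compared per kilobase of merged exons. In IgG the order was Socs3, Socs1, Pim1, Il4ra, Cish and Socs2, with means of 589, 358, 124, 36.4, 26.3 and 0.0738 CPM per kb. Neighbours in this order did not overlap, except that Socs3 overlapped Socs1 and Il4ra overlapped Cish. The order of the means was the same in aOX40, at 324, 87.0, 56.65, 29.7, 10.3 and 0.0779 CPM per kb. There the overlapping neighbours were Socs1 with Pim1 and Pim1 with Il4ra, while Socs3 was above Socs1 in all 3 libraries without overlap. By mean level per length, Socs3 ranked 126th in IgG and 170th in aOX40 among 17669 genes with an annotated length, and Socs1 ranked 184th and 517th.

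**Figure D3:**
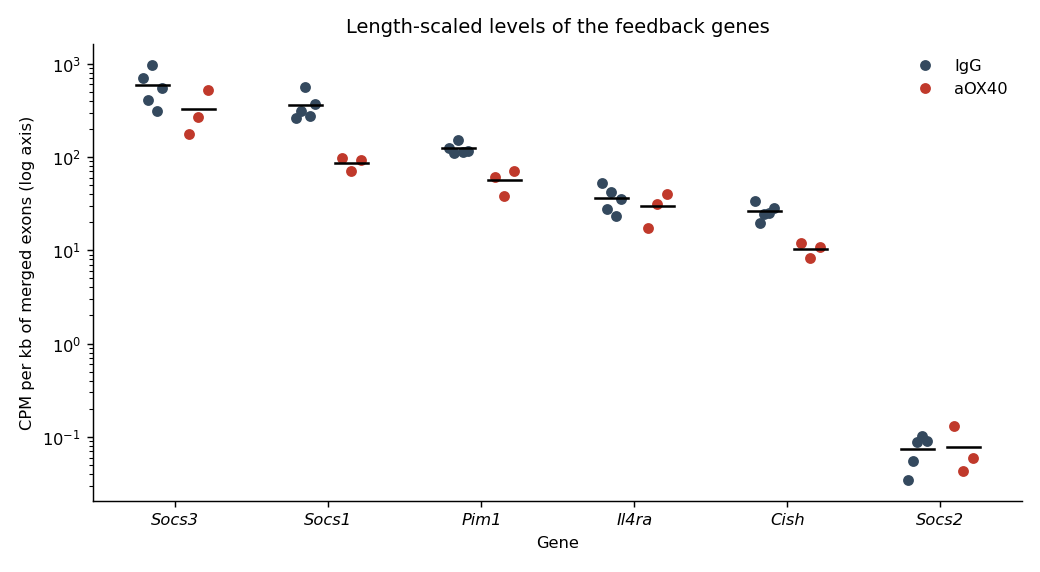
Level of each gene in CPM per kb of merged exons on a log axis, by library, with IgG in dark blue, aOX40 in red and a black bar at the mean. The genes are ordered by their IgG mean, from Socs3 at 589 to Socs2 at 0.0738 CPM per kb.

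Ratios of 2 genes within a library do not depend on how libraries are scaled. Of the 15 ratios between the 6 genes, 4 did not overlap between groups, and 2 of these had the barely detected Socs2 as the lower term. Socs1 over Pim1 was 1.38, 1.62 and 1.13 in aOX40 and 1.82, 2.42, 3.24, 2.11 and 2.74 in IgG, so that Socs1 was lower in aOX40 by more than Pim1 was. Socs3 over Il4ra was 4.93, 4.06 and 6.35 in aOX40 and 6.38, 7.02, 11.04, 6.52 and 7.49 in IgG. That ratio separated the groups although neither gene did so alone, by a narrow margin between aOX40 replicate 3 and IgG replicate 2. Pim1 over Cish overlapped, at 2.41 to 3.46 in aOX40 and 1.98 to 3.23 in IgG, and Socs1 over Cish was nearly constant in aOX40, at 3.68, 3.92 and 3.90, against 3.60 to 10.4 in IgG. The ratios are given as a description, since they rest on the levels that chose the genes.

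**Figure D4:**
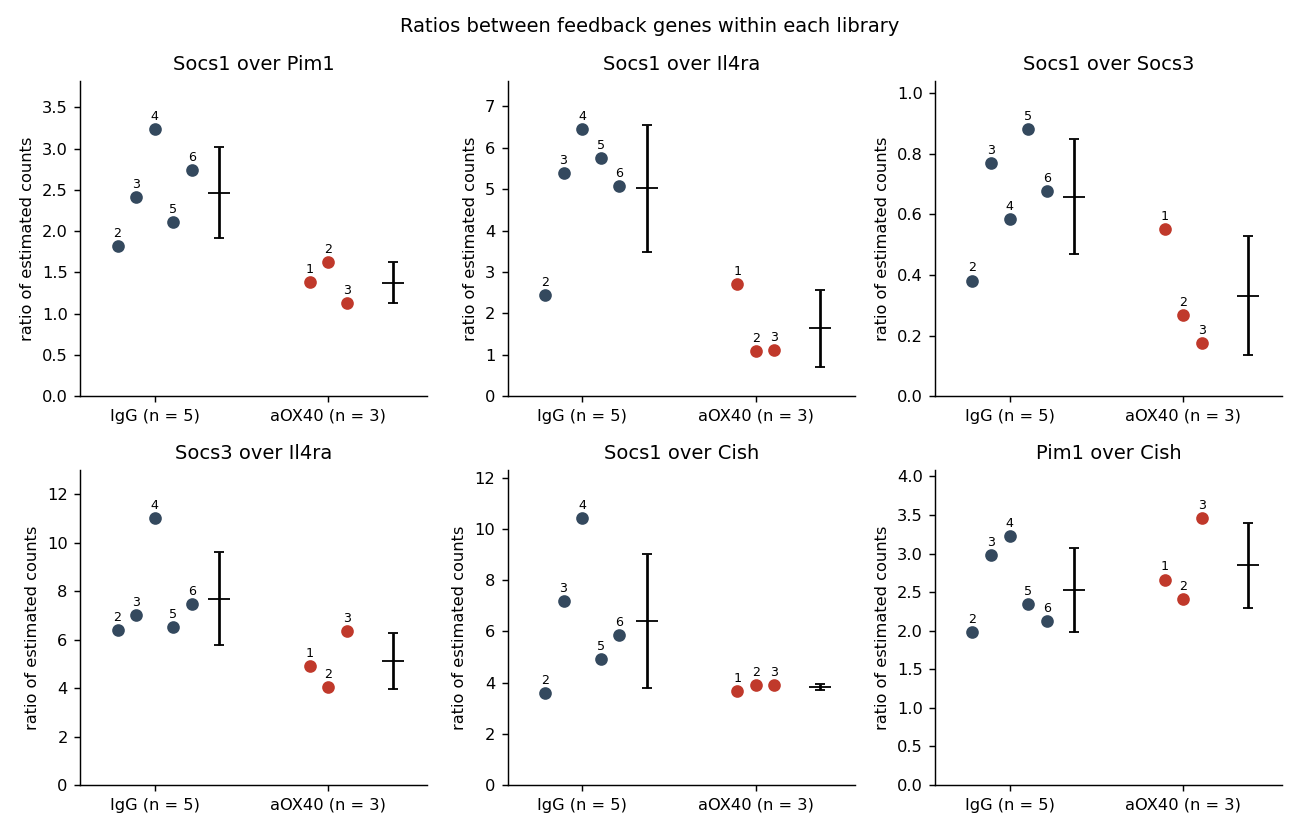
Ratio of the estimated counts of 2 genes in each library for 6 of the 15 ratios, with IgG in dark blue, aOX40 in red, replicate numbers at the points and the mean and SD of each group beside them. Socs1 over Pim1 and Socs3 over Il4ra keep every red point below every blue one, and the other 4 overlap.

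Within the groups, the genes did not share 1 order of libraries. IgG replicate 4 was the highest IgG library for Socs1, Socs3 and Pim1, but the fourth of 5 for Cish. IgG replicate 2 was the highest for Cish and Il4ra and the lowest for Socs1 and Socs2. IgG replicate 3 was below the IgG mean (log2 CPM) for all 6 genes. In aOX40, replicate 2 was the lowest library for Socs1, Socs2, Cish and Pim1, and replicate 3 was the highest for Socs3, Pim1 and Il4ra.

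The pattern over the 8 libraries was compared by the root mean square difference of log2 CPM after each gene was centred on its own mean, a distance that is 0 for identical patterns. It includes the difference between the groups, on which the members were chosen, so genes with like fold changes come out near each other. The distances are given as a description, and shared regulation was not tested. Among the members, Cish and Pim1 were closest, at 0.27, followed by Socs3 and Il4ra at 0.40, and Socs1 was 0.48 from Pim1 and 0.52 from Cish. Against 4554 other genes with a mean of at least 10 CPM, the nearest to Socs1 were Helz2 (0.15), Parp14 (0.18) and Oas2 (0.23), where the median distance was 1.10. The nearest to Cish were Ptgs2os2 (0.13), the proprotein convertase gene Furin (0.15) and Srrm2 (0.16), and the nearest to Pim1 were the chromatin remodeller gene Chd2 (0.15), Trim30a (0.15) and the pantothenate kinase gene Pank2 (0.16). Socs3 lay nearest to Arhgap26 (0.20), the heat shock gene Hspa1a (0.22) and Themis2 (0.23), and genes near Il4ra included Hnrnpll (0.18) and Sesn2 (0.21). For Socs2, at its low counts, they were Mrgpra2b (0.24), Sar1b (0.27) and Timm10b (0.30).

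The other genes of the pathway were taken from 12 lists written from textbook knowledge, but with earlier results of these data known, so their counts are no independent support. The members were left out. Each count below is from the fit over all genes, to be read beside the 3.00% called lower and 2.64% called higher. Without aOX40 replicate 2 every one of these calls was lost. Without aOX40 replicate 3, those of Ptpn6, Pim2, Bcl2l1 and Pdcd1lg2 were lost, with 3 of the 4 receptor chains and 1 of the 2 PIM substrates. Without aOX40 replicate 1 those of Pim2 and Bcl2l1 were lost, and receptor chains had 2 calls lower and 1 higher. Leaving out an IgG library also ended calls, that of Pim2 without replicate 2, 4, 5 or 6 and that of Bcl2l1 without replicate 4. PIM substrates had 1 call without IgG replicate 2, 4 or 6. Receptor chains had 3 without IgG replicate 2, 3 or 4 and 2 without IgG replicate 6.

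Of the other 4 SOCS genes, 0 passed the test in either direction, with a median log2 fold change of -0.47. Socs4 was the only one above 10 CPM, with a mean of 26.2 ± 6.18 CPM over the aOX40 libraries (SD, n = 3), 34.5 ± 5.02 CPM over the IgG libraries (SD, n = 5) and -0.40 (SE 0.24) as its log2 fold change (adjusted p = 0.336, edgeR). Socs5, Socs6 and Socs7 were at means of 0.33, 2.53 and 1.15 CPM in aOX40 and 0.95, 2.44 and 1.65 CPM in IgG. The 6 measured partners of the SOCS box, which build the ubiquitin ligase, also had 0 called (median -0.13). The values with the smallest adjusted p were 0.168 for Cul2 and 0.546 for the elongin gene Eloc (edgeR).

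Of the other 12 tested inhibitors of the pathway, Ptpn6 rose and 0 fell. Ptpn6 encodes the phosphatase SHP-1, which takes phosphate off receptors and JAK kinases in blood cells. It was at 346, 501 and 419 CPM in aOX40 and at 77.4, 173, 218, 143 and 156 CPM in IgG, without overlap. Its log2 fold change was 1.46, with an SE of 0.28 and an adjusted p of 0.0207 (edgeR). This is the opposite side from Socs1 and Cish, and the difference between them was not tested. The list as a whole had a median of 0.03.

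Among 18 tested cytokine receptor chains, 4 fell and 0 rose, with a median of -0.39. With scaling by total counts 3 were called lower and 1 higher, and without aOX40 replicate 1 it was 2 lower and 1 higher. Of the 4, 3 are chains of the receptors for GM-CSF and its relatives, which signal mainly through JAK2 and STAT5. Csf2rb, the common beta chain, was at 419, 284 and 393 CPM in aOX40 and at 935, 1185, 1306, 1542 and 1502 CPM in IgG, for which edgeR gave a log2 fold change of -1.82 (SE 0.23) and an adjusted p of 0.00815. Csf2rb2, the closely related beta chain of the mouse IL-3 receptor, had a log2 fold change of -1.65 (adjusted p = 0.0308) and the GM-CSF receptor alpha chain gene Csf2ra of -0.93 (adjusted p = 0.0492, edgeR). Reads of Csf2rb and Csf2rb2 may be shared between them, and Csf2ra was called in 6 of 18 alternatives. Il15ra, the chain that presents IL-15, fell from 93.2 ± 23.9 CPM (SD, n = 5) to 32.5 ± 12.5 CPM (SD, n = 3), a log2 fold change of -1.52 (adjusted p = 0.0248, edgeR).

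Il15, the ligand of that chain, was the 1 gene called of 9 tested cytokine genes, at 169, 95.9 and 122 CPM in aOX40 and 532, 350, 553, 440 and 454 CPM in IgG. The groups lay far apart, by -1.85 on the log2 scale (SE 0.25), and the adjusted p was 0.00815 (edgeR). The list's median was 0.71, on the other side of 0, and 7 of the 9 were above 0.

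The transducers themselves were not called. Of 4 JAK kinase genes and 6 STAT genes, 0 passed in either direction, with medians of 0.31 and -0.27. Tyk2 had the smallest adjusted p of the kinases, at 0.058 (edgeR), with a log2 fold change of 2.00 between means of 10.5 and 2.57 CPM, followed by Jak2 (log2 fold change -0.33, adjusted p = 0.375). Stat2 was at 42.9 ± 16.2 CPM (SD, n = 3) against 76.3 ± 11.5 CPM (SD, n = 5), without overlap (log2 fold change -0.83, adjusted p = 0.0856, edgeR), and Stat3 had a log2 fold change of -0.60 (adjusted p = 0.245). In IL-4 receptor signalling, 1 of 9 tested genes rose, again Ptpn6, and 0 fell, with a median of 0.20.

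The other 2 PIM kinase genes had log2 fold changes above 0. Pim2 rose, at 9.58, 4.91 and 16.3 CPM in aOX40 against 2.34, 3.71, 2.42, 0.31 and 1.65 CPM in IgG, and edgeR put its log2 fold change at 2.33 (SE 0.55) and its adjusted p at 0.0386. It was called in 7 of 18 alternatives, and its difference from Pim1 was not tested. Pim3 did not pass, at 30.7 ± 10.98 CPM (SD, n = 3) and 23.8 ± 10.1 CPM (SD, n = 5). Of 12 known PIM substrates and partners, 2 fell and 0 rose (median 0.06). They were Cdkn1a, the cell cycle inhibitor p21, from 2948 ± 120 CPM (SD, n = 5) to 1189 ± 265 CPM (SD, n = 3), and the transcription factor gene Foxo3, with a log2 fold change of -1.50 (adjusted p = 0.0324, edgeR).

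Of 20 tested genes induced by STAT5 or STAT3, 1 fell, the survival gene Bcl2l1, from 668 ± 153 CPM (SD, n = 5) to 350 ± 41.8 CPM (SD, n = 3), with an adjusted p of 0.0379 (edgeR; called in 8 of 18 alternatives) and a median of -0.06 for the list. Scaling by total counts ended that call and gave 1 other gene higher and 0 lower. Of 8 tested genes induced by STAT6, Pdcd1lg2 fell, with a log2 fold change of -1.55 (adjusted p = 0.0168, edgeR), and the list's median was -1.04. That median rests in part on genes with means below 2 CPM in both groups, and 2 of the 8 were above 0. The list medians were not tested against each other, and several genes answer to more than 1 STAT factor.

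**Figure D5:**
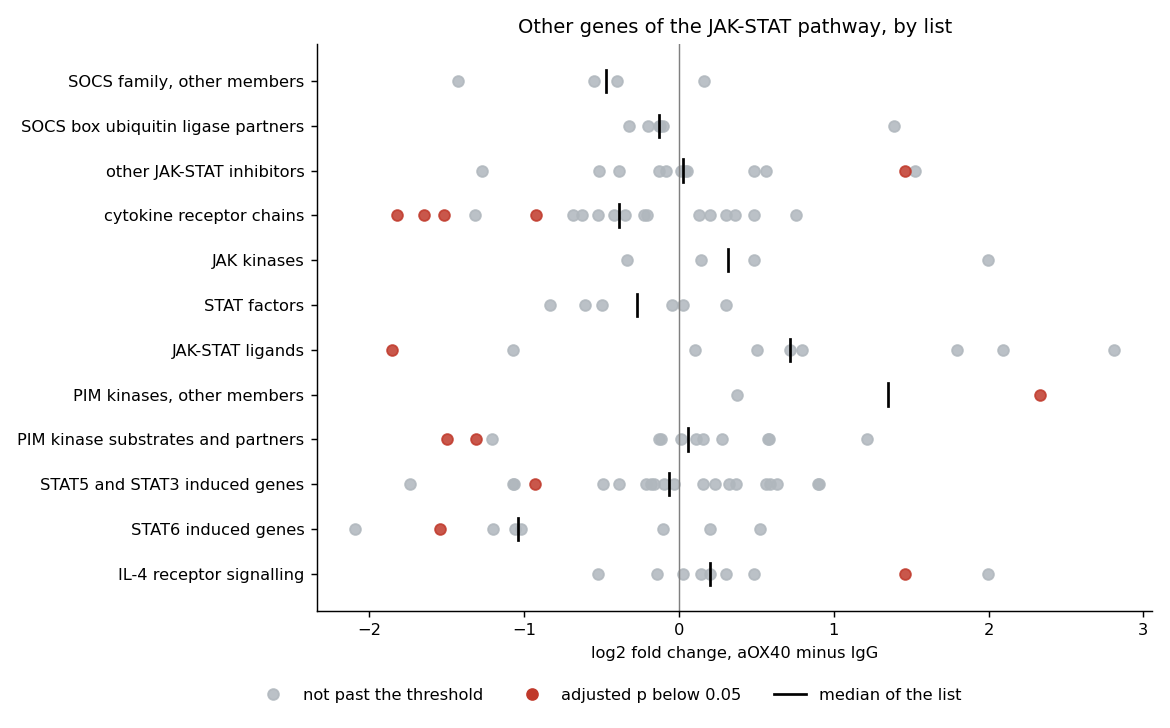
log2 fold change (aOX40 minus IgG) of every tested gene in the 12 pathway lists, 1 point per gene, in red where the adjusted p was below 0.05 and in grey otherwise, with a black bar at the median of each list. Ptpn6 and Pim2 are the red points above 0, and the receptor chain list holds 4 red points below 0.

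Several features of the libraries moved with the groups. The aOX40 libraries held 69.6 to 73.5 M counts and the IgG libraries 52.7 to 63.2 M, without overlap (exact two-sided permutation p = 0.0357, the smallest that 3 against 5 libraries allow), and their TMM factors were 1.07 to 1.27 against 0.874 to 0.984. All 16 neutrophil markers were detected in both groups and summed to 43025 to 58304 CPM in aOX40 and 50997 to 68933 CPM in IgG. Of these, 2 rose, the protease genes Mmp8 and Mmp9, and Mmp9 overlapped between the groups. Cxcl2 (13436 against 21427 CPM in the means, adjusted p = 0.1) and G0s2 (3413 against 6245 CPM, adjusted p = 0.0953, edgeR) were lower without overlap but did not pass. Sums of the other cell types' markers were far below the neutrophil sums. The 11 macrophage and monocyte markers summed to 1084 to 1527 CPM in aOX40 and 1403 to 2037 CPM in IgG, most of it Cd68 and Ly6c2. Cd68 fell (639 against 1272 CPM in the means), while Ly6c2 was not called (547 against 425 CPM, adjusted p = 0.484, edgeR). In aOX40 replicate 2, Ly6c2 (686 CPM) was above Cd68 (504 CPM). Adgre1 of the same list rose (21.6 against 6.12 CPM), and Csf1r was higher without overlap but did not pass (51.2 against 17.5 CPM, adjusted p = 0.0546, edgeR). Erythroid and platelet markers summed to 69.0 to 585 CPM in aOX40 and 10.7 to 345 CPM in IgG, and 7 T cell markers to 3.79 to 19.2 and 1.35 to 11.1 CPM. The 5 dendritic cell markers summed to 11.3 to 20.2 and 22.5 to 41.0 CPM, most of it Itgax (15.4 against 30.9 CPM in the means). Itgax was not called (adjusted p = 0.0697, edgeR), and Flt3, Xcr1, Clec9a and Zbtb46 overlapped between the groups. The 4 fibroblast and pericyte markers summed to 1.22 to 4.04 and 3.45 to 32.4 CPM, in IgG mostly Col1a1, which fell (1.72 against 15.01 CPM). Col3a1, Dcn and Lum overlapped between the groups. The 13 mitochondrial messenger RNAs, which can follow RNA quality, summed to 915 to 1200 CPM in aOX40 and 571 to 929 CPM in IgG. The part of depth, composition and these markers in the levels of the 6 genes was not tested.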

How the data were processed

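The members and the gene lists were chosen with earlier results of these data known. The authors deposited estimated counts per gene symbol for 8 libraries, without scaling. The build mm10 and the tools featureCounts 1.5.1, Subread and STAR 2.6.0 come from the submitters' processing notes, and the sources used here do not give settings, strand or annotation. Only 63.4% of values were whole within 0.01, so some reads may have been shared out among genes. The table's columns were matched to libraries by the sample names in the labels.

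Counts were rounded, filtered with filterByExpr and scaled with TMM factors, and all 13278 genes that passed were fitted with edgeR's quasi-likelihood test (edgeR 4.0.16, R 4.3.3, group as the only term, Benjamini-Hochberg adjustment, threshold 0.05). The 6 members all passed the filter. The standard error came from the F statistic. Patterns were taken on log2 CPM (prior count 2). Positions and exon lengths came from GENCODE M21, matched by symbol, and near copies were searched with BLAST at 95% identity over 50% of the transcript. Genes named are the members, the other SOCS and PIM genes, up to 4 called genes of each list (or the 2 with the smallest adjusted p) and the 3 nearest patterns per member. The alternatives were 3 other scalings, 2 filters, DESeq2 1.42.0, limma 3.58.1 voom with and without weights, each library left out and the replicate number as a block. edgeR's earlier quasi-likelihood method was added after the data were seen. The procedure was tested on simulated data. Some planned genes and 1 planned list are not reported here.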

Additional observations from a re-analysis of the deposited data

Results flagged for a closer look

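Of 46 genes examined in the 5 IgG libraries, 3 had 1 library far from the other 4, and chance alone gives such a gap in about 1 of 20 groups. Cdkn1a was at 2736 CPM in IgG replicate 3, below the 2980.5 to 3030.3 CPM of the others. Helz2, the gene with the pattern nearest to Socs1, was at 121 CPM in IgG replicate 4 against 55.5 to 73.6 CPM, and Socs1 was also highest in that library. Furin, among the nearest to Cish, was at 291 CPM in IgG replicate 2 against 173 to 204 CPM, the library in which Cish was highest. Helz2 and Furin were picked for patterns close to these members over the same libraries, so a shared high library follows in part from that choice. None of the 6 members had such a gap.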

How the results depend on the processing

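Socs1 was called in 16 of 18 alternatives, Cish in 15 and Pim1 in 14, and Socs2, Socs3 and Il4ra in 0. The calls of the members were lost only without aOX40 replicate 1, 2 or 3 and with the replicate block. With 1 library left out, the number of members called ran from 0 to 3 and that of all genes from 0 (without aOX40 replicate 2) to 589. It was 59 without aOX40 replicate 3, 497 without IgG replicate 3 and 475 without IgG replicate 6. With the replicate block, edgeR called 0 members and 0 genes of 13278 (2594 at an unadjusted p below 0.05), and 0 in each pathway list. The groups share only numbers 2 and 3, so with the block the contrast rests on the libraries of those numbers. That fit has little power to call any gene, and its loss of calls decides nothing about the members. Deviations from the group means correlated at 0.02 and 0.05 between the libraries of these numbers. These 2 values cannot decide whether libraries of the same number were paired, and the labels do not say. The count over all genes was 750, and it became 452 with no filter, 937 with at least 10 counts in all libraries, 1457 with DESeq2, 1305 with weighted voom and 320 with edgeR's earlier method. Scaling by total counts moved the all-gene median by 0.30 (log2) and made 78.0% of calls higher, against 46.8%; Cish then stood at -1.06, and there were 3 calls among other inhibitors (all higher), 1 among JAK kinases, 2 among ligands (1 higher, 1 lower) and 2 in IL-4 receptor signalling (both higher). Receptor chains went from 0 higher and 4 lower to 1 and 3, and STAT5 and STAT3 induced genes from 0 higher and 1 lower to 1 and 0.

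Among pathway lists, STAT5 and STAT3 induced genes had 2 calls with upper quartile factors, 3 with the stricter filter, 3 with DESeq2 and 0 with no filter or the earlier method. DESeq2 gave 1 STAT factor, 2 ligands and 2 genes of IL-4 receptor signalling, the stricter filter gave 3 ligands, and weighted voom gave 1 STAT factor. Pim2 was not called with voom, weighted or not, or with the earlier method, which left 2 receptor chains and 1 PIM substrate. With 1 library left out, calls ran from 0 to 4 for receptor chains, 0 to 2 for ligands and for PIM substrates, and 0 to 1 for other inhibitors, PIM kinases, STAT5 and STAT3, STAT6 and IL-4 receptor lists. For these counts the cause was not tested. Socs2 rests on 16 to 93 counts per library, and its pooled SD was 0.68 (log2 CPM), beside 0.70 for the abundant Socs3. The part of its low counts in that spread was not tested.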
